A study of Mus musculus with 8 samples.

Results

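The postsynaptic density is the protein-dense layer under the membrane of an excitatory synapse, and 39 genes that encode its scaffolds, its calmodulin kinase signalling proteins, its small GTPase regulators and proteins of the dendrite were followed in mouse cerebral cortex. The members were given by gene symbol, with glutamate receptors left out, and all 39 were found among the 55416 genes of the count table. They were sorted by role into 19 scaffolds, 4 kinase signalling genes, 9 small GTPase regulators and 7 genes of the spine and dendrite cytoskeleton and membrane. Ddn, which gives the group its name, was already known as a gene past the threshold in these libraries when the list was put together, so its call is described here and is not independent evidence.

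Messenger RNA was sequenced from the cerebral cortex of 4 mice heterozygous for the AGO2 L192P allele and of 4 wild-type (WT) mice. AGO2 is an Argonaute protein that loads a microRNA and uses it to find and silence messenger RNAs, and L192P is a substitution found in a human neurodevelopmental syndrome. The allele was written into the mouse germline with CRISPR/Cas, so it is present in every cell, and its repair template also carried a silent change at the guide's recognition site. Founders were crossed to C57/Bl6 animals, heterozygotes came from matings with WT mice, and no treatment is named for either group. The age and sex of the animals and the number of founders are not given in the sources used here. A substitution cannot be seen in gene counts, so the genotype labels were not checked.

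Scaffolds of the postsynaptic density are stacked in layers. Membrane-associated guanylate kinases of the Dlg family hold receptors at the membrane, the Dlgap proteins bind beneath them, and Shank and Homer proteins link this layer to the actin of the spine. Calcium entering the spine binds calmodulin and switches on the kinase CaMKII, while exchange factors and activating proteins of small GTPases set the shape of the spine and the traffic of membrane. Several messenger RNAs of this group, those of Camk2a, Map2, Nrgn and Ddn among them, are known to be carried into dendrites.

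Each library held between 20396357 and 43575900 counts, the largest in WT replicate 2. No member was lost to a filter, and the lowest count of any member in any library was 81, for Homer3. The tissue label was compared with marker genes. Slc17a7, the vesicular glutamate transporter of cortical excitatory neurons, had 30262 ± 1605 normalized counts in L192P and 33185 ± 857 in WT (SD, n = 4 each), and no gene of the excitatory, interneuron, glial or regional marker lists was at 0. Markers of striatum were also present, and their values stand beside the results below. The 2 libraries numbered 1 stood apart from the other 6. They had 0.934 and 1.82 normalized counts of Xist, the noncoding RNA of the inactive X chromosome, against 5185 to 7257 in the others, and results that rest on them are given with and without them. Nothing in the labels says what a replicate number stands for or whether the animals were littermates.

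The members differed widely in abundance. On a per-length scale (TPM, transcript levels relative to the library's total, computed here from the counts and the length of all annotated exons), the WT mean ran from 8.2 for Homer3 to 3272 for Camk2n1. The 5 highest levels in WT were those of Camk2n1, which encodes an inhibitor of CaMKII, Nrgn with 2344, Ddn with 1355, Camk2a with 1122 and Ppp1r9b with 1065 TPM. The levels of Ddn, Camk2a and Ppp1r9b across all 8 libraries spanned 977 to 1496, 898 to 1273 and 902 to 1196, so these pooled ranges overlapped. The ranges pool both genotypes, while the order is that of WT. In L192P the means of Ddn, Camk2a and Ppp1r9b were 1025, 1030 and 974 TPM. Camk2n1, with 2695 to 3477, stood above Nrgn, with 1908 to 2479, in every library. At the other end, Tanc1 (8.11 to 15.4) and Homer3 (3.93 to 12.9) overlapped.

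**Figure D1:**
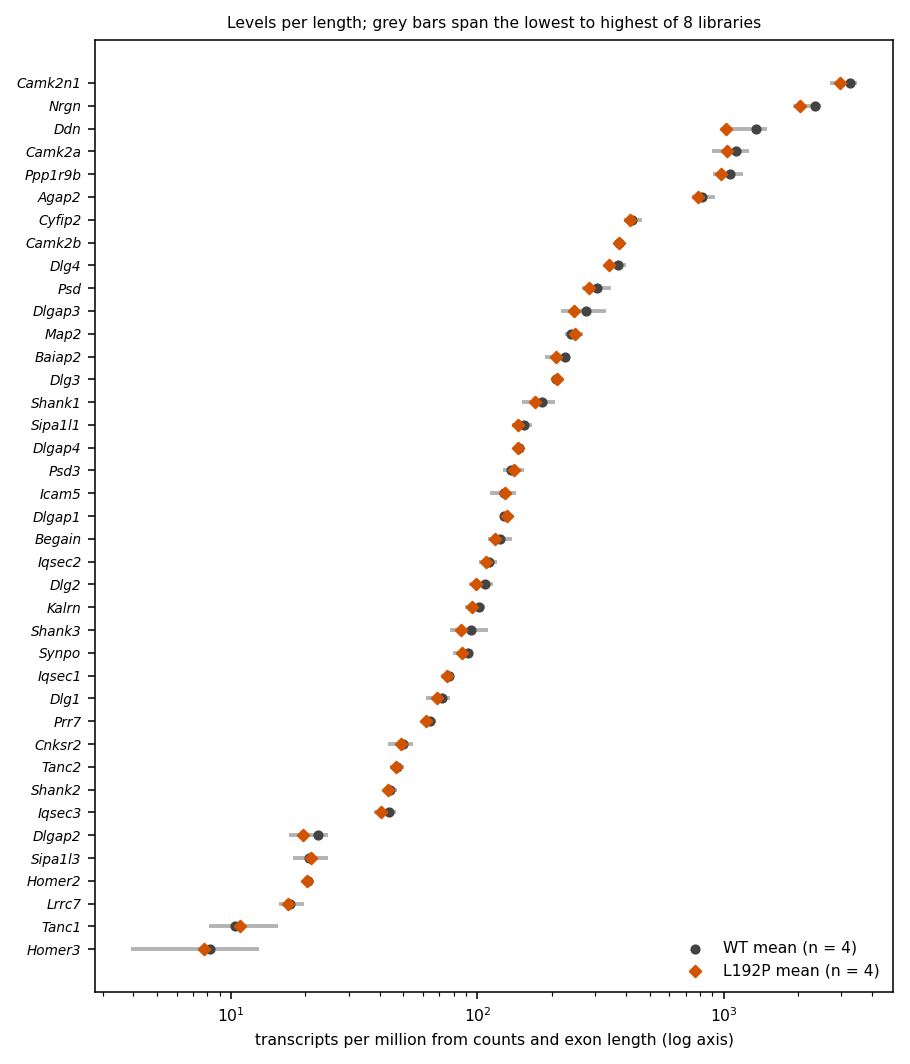
Levels of the 39 members per length, in TPM on a log axis, with the WT mean (circle, n = 4), the L192P mean (diamond, n = 4) and a grey bar from the lowest to the highest of 8 libraries. Camk2n1, Nrgn and Ddn lead the order at 3272, 2344 and 1355 in WT, and Homer3 is lowest at 8.2.

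Ddn encodes dendrin, a protein of dendrites and the postsynaptic density that binds scaffold and cytoskeletal proteins. The gene (ENSMUSG00000059213) lies on the minus strand at chr15:98701658-98707371 of GRCm39. Because AGO2 acts through base pairing between the microRNA seed (bases 2 to 8) and the 3′ UTR of its targets, the seed matches in that UTR are shown first. The annotated 3′ UTR of Ddn is 1500 bases long and held 1 match each for the families of let-7, miR-29 and miR-138, of 11 families searched. The miR-124 family was not among those searched. The mature microRNAs, from RefSeq, are printed 5′ to 3′ with the seed in capitals.
let-7a-5p: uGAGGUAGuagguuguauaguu
miR-29a-3p: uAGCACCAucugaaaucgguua
miR-138-5p: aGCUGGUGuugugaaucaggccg

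The matches in Ddn are printed as 30 bases of the transcript strand, with the 7 bases complementary to the seed in capitals. The let-7 match lies at chr15:98701750-98701779, the miR-138 match at chr15:98702085-98702114 and the miR-29 match at chr15:98702104-98702133, all in the 3′ UTR on the minus strand of GRCm39. The windows of the miR-29 and miR-138 matches overlap, while the capitals do not.
Ddn, let-7: gtttataaacacCTACCTCgcagggttgtt
Ddn, miR-29: tcccccggttgcTGGTGCTcgagtgcccct
Ddn, miR-138: cgagtgcccctaCACCAGCactgccagtta

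Ddn was the 1 member whose level was called different between the genotypes when genotype was the only term of the model. Its normalized counts were 20981, 26892, 25145 and 23397 in WT replicates 1 to 4 and 16209, 18668, 18498 and 18428 in L192P replicates 1 to 4. Every L192P library lay below every WT library, and the lowest library of each genotype was replicate 1. Ddn fell by 25.5%, a log2 fold change of -0.43 ± 0.08 (SE) with an adjusted p of 6.88e-05 (DESeq2 Wald test with Benjamini-Hochberg adjustment over 18627 genes). With the replicate number as a block the log2 fold change was -0.42 ± 0.04 and the adjusted p 3.19e-19. The 4 same-numbered pairs gave log2 differences of -0.37, -0.53, -0.44 and -0.34. In a bulk tissue, fewer cells that express Ddn and less Ddn RNA per cell cannot be told apart.

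Of all genes tested, 0.569% were called lower in L192P and 0.789% higher by this test. Among the members the counts were 1 lower and 0 higher, 5 members had an unadjusted p under 0.05, and edgeR and limma gave the same counts of 1 and 0. The share of all tested genes with an unadjusted p under 0.05 was not computed, so such counts, here and below, stand without it. The share of all tested genes whose libraries did not overlap between the genotypes was 2.96% for lower and 3.01% for higher. Ddn and Nrgn were the 2 members without overlap, both lower, and 0 members were higher without overlap. A noncoding gene on the opposite strand, B130046B21Rik, shares 177 exonic bases with Ddn. It had 26.1 ± 4.65 normalized counts in L192P and 30.8 ± 2.21 in WT (DESeq2 adjusted p = 0.924). Whether the counting used strand is not given in the sources used here, so the reads of this overlap cannot be told apart. The same limit holds for longer opposite-strand overlaps of other members. Among them are Homer3 with Ddx49 (1153 bases), Camk2b with Ykt6 (1813), Psd with Nfkb2 (1933) and Cnksr2 with Klhl34 (1935).

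Markers of striatum, a region that borders the cortex, differed alongside Ddn. All 10 genes of the striatum list had a log2 fold change below 0, with a median of -0.25, and Penk, which encodes the enkephalin precursor of striatal projection neurons, was called lower by DESeq2 (log2 fold change -0.51 ± 0.10, adjusted p = 0.000286). The summed normalized counts of the list ran from 35169 to 44014 in L192P and from 46704 to 57498 in WT, with no overlap. The summed counts of the 11 excitatory neuron markers also did not overlap, with 44124 to 49540 in L192P and 50128 to 51853 in WT, and none of them was called. The part of either cell source in the level of Ddn, or of any other member, was not tested.

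The other members were, for the most part, slightly lower in L192P without passing the threshold. A log2 fold change below 0 was found for 34 of the 39 members, against 49.4% of all tested genes. The median of the members was -0.10, against 0.0019 over all genes tested and -0.0069 over the 10753 genes at or above the lowest member's mean. The 5 members above 0 were Dlgap1, Psd3, Map2, Sipa1l3 and Tanc1, the highest being Tanc1 at 0.06 ± 0.26 (SE). When libraries were scaled by their total counts the median of all genes moved to 0.026 and 31 members were below 0, with Dlg3, Camk2b and Icam5 added to those above. The members were read from the same 8 libraries and are not independent observations, so these counts describe the list and carry no test.

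**Figure D2:**
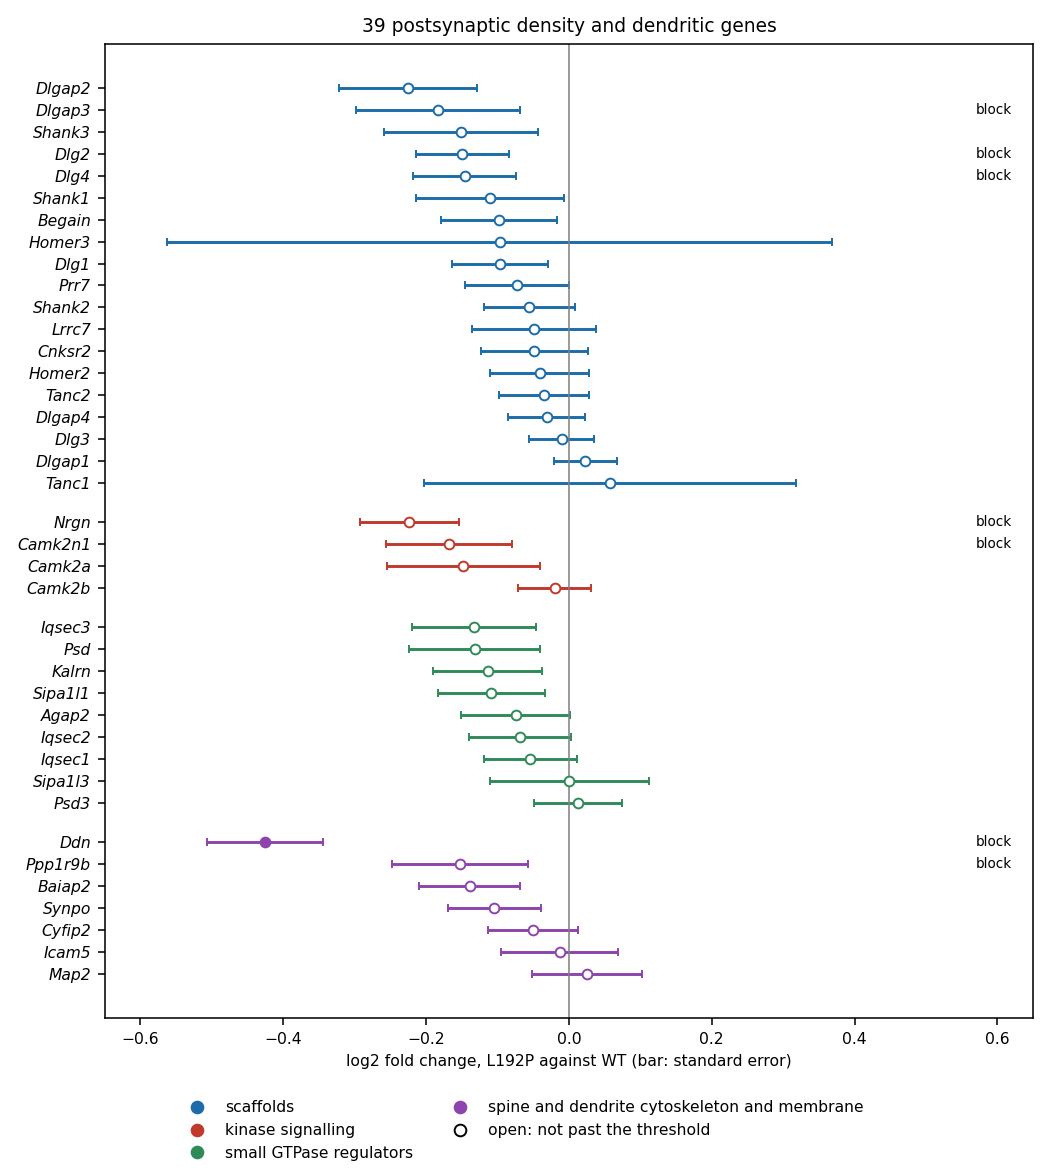
Log2 fold change of each member, L192P against WT, from the DESeq2 fit with genotype as the only term (bars: standard error, n = 4 per genotype), grouped by role. The filled point, Ddn at -0.43, is past the threshold; open points are not, and "block" marks the 7 members called with the replicate block.

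The libraries carried a shared pattern by replicate number. The mean of centred log2 levels over the 39 members was -0.103 and -0.075 in L192P and WT replicate 1, and in the other numbers it was -0.037, 0.0041 and -0.047 in L192P against 0.107, 0.094 and 0.057 in WT. WT replicate 1 lay below L192P replicates 2, 3 and 4. For 14 members both replicate 1 libraries were lower than the other 6, against 9.89% of all tested genes. For Homer3, Tanc1 and Sipa1l3 both replicate 3 libraries were higher than the other 6, against 3.38% of tested genes. The hippocampus markers were also highest in the replicate 3 libraries, with list scores of 0.63 in L192P and 0.73 in WT against -0.66 to 0.10 in the other 6.

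**Figure D3:**
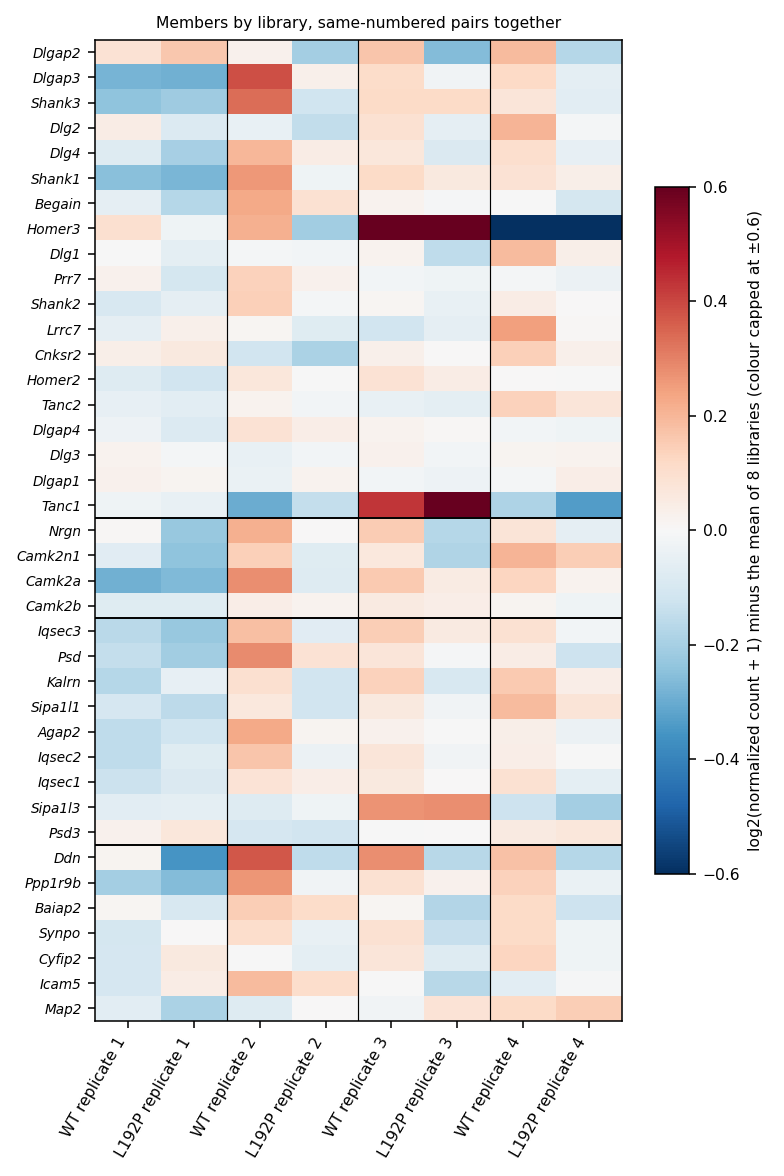
Centred log2 levels of the 39 members in the 8 libraries, with same-numbered libraries side by side and roles separated by black lines. Colours run from blue (below the gene's mean) to red (above) and are capped at 0.6. Ddn is blue in all L192P libraries, and Homer3, Tanc1 and Sipa1l3 are red in both replicate 3 libraries.

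The genotypes were also compared within same-numbered pairs. In 19 members L192P was lower in all 4 pairs, against 11.4% of tested genes, and in 0 members it was higher in all 4 pairs, against 12.3%. With the replicate number as a block in DESeq2, 7 of the 39 members were called lower, against 2.43% of the 12536 genes tested in that fit, and 0 were called higher, against 1.82%. They were Ddn, Nrgn, Camk2n1, Dlg4, Dlg2, Ppp1r9b and Dlgap3. Apart from Ddn these calls rest on the block, since none passed with genotype alone. The block was not fitted in edgeR or limma, so the blocked calls come from DESeq2 only. The values of these members follow by role.

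**Figure D4:**
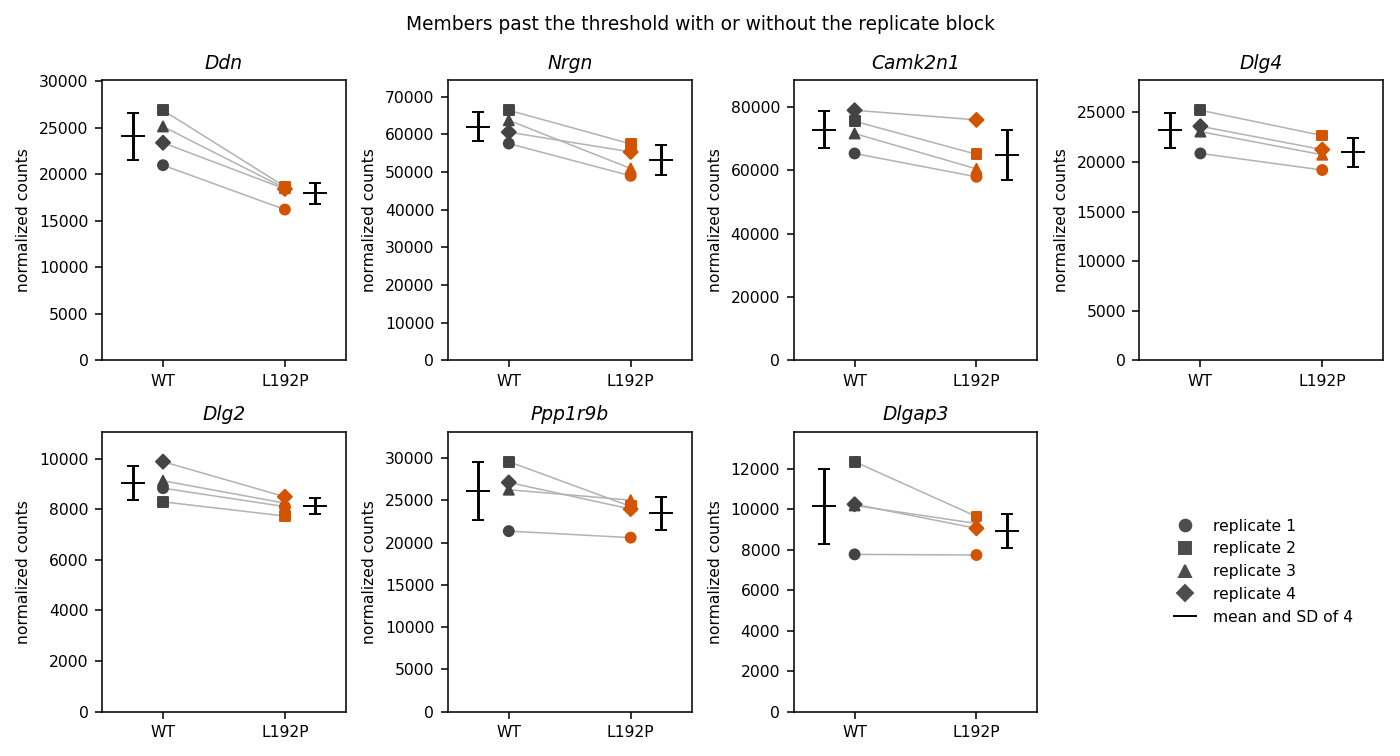
Normalized counts in each library of the 7 members called lower in L192P with the replicate block, from 0 on each axis. Grey lines join same-numbered libraries, and the mark beside each group is the mean with its SD (n = 4). The genotypes are separated for Ddn and Nrgn and overlap for the other 5, in which all 4 lines descend.

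Among the kinase signalling genes, Nrgn encodes neurogranin, a small postsynaptic protein that holds calmodulin. Nrgn had 57521, 66357, 63686 and 60545 normalized counts in WT replicates 1 to 4. In L192P it had 48946, 57428, 50893 and 55295. The highest L192P library lay just under the lowest WT library, so the groups did not overlap. The log2 fold change was -0.22 ± 0.07 (SE), with a DESeq2 adjusted p of 0.0728 without the block and 1.33e-05 with it. The Nrgn gene (chr9:37452275-37464689, minus strand) shares 1219 exonic bases with Vsig2 on the opposite strand. Vsig2 had 326 ± 26.7 normalized counts in L192P and 408 ± 46.2 in WT (adjusted p = 0.159 by DESeq2).

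Nrgn held 2 seed matches for miR-29, the family also matched in Ddn, and 1 for miR-125. They lie in the 3′ UTR on the minus strand, at chr9:37455383-37455412, chr9:37454613-37454642 and chr9:37455223-37455252 of GRCm39 in the order printed. The miR-29 family matched 10 of the 38 members with a 3′ UTR. Of these Dlgap2, Shank1, Baiap2, Iqsec1, Kalrn, Psd3 and Synpo were not called with the block. The miR-125 family matched 8 members, of which Dlgap2, Shank1, Shank2, Shank3, Iqsec2 and Synpo were not called with the block.
Nrgn, miR-29, first: tagtggtggtcaTGGTGCTggcacatggag
Nrgn, miR-29, second: gatcaggtatgaTGGTGCTtggggagcaaa
Nrgn, miR-125: gtcatcctctaaCTCAGGGacatgtaaatt

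Camk2n1, the CaMKII inhibitor, was the most abundant member. It had 65318, 75493, 71622 and 78976 normalized counts in WT replicates 1 to 4 and 57948, 65065, 60460 and 75941 in L192P. The genotypes overlapped, because replicate 4 was the highest library of each genotype. DESeq2 gave a log2 fold change of -0.17 ± 0.09, with an adjusted p of 0.552 without the block and 0.00239 with it. Its 3′ UTR, 3335 bases long, held 2 matches for miR-125, at chr4:138185464-138185493 and chr4:138186898-138186927, each followed by an A. It also held 1 match each for miR-9 and miR-92, the latter at chr4:138184515-138184544. All are on the plus strand of GRCm39, and the mature miR-125b-5p and miR-92a-3p, from RefSeq, are set beside them.
miR-125b-5p: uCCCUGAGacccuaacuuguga
Camk2n1, miR-125, first: ttagccttgtttCTCAGGGactggaataca
Camk2n1, miR-125, second: agaagctgaggtCTCAGGGaagcaagaaag
miR-92a-3p: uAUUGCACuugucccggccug
Camk2n1, miR-92: atggtaaatattGTGCAATtatagctctgg

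Camk2a and Camk2b, which encode the α and β subunits of CaMKII, were not called in either fit. Camk2a had 39925, 45523, 49651 and 48741 normalized counts in L192P and 39319, 58311, 53513 and 52550 in WT, with both replicate 1 libraries lowest. Its log2 fold change was -0.15 ± 0.11 (DESeq2 adjusted p = 0.765, and 0.521 with the block). Without the 2 replicate 1 libraries the log2 fold change was -0.19 and Camk2a was called lower (DESeq2 adjusted p = 0.0342). Camk2b was closer to 0, at -0.02 ± 0.05, a 95% interval of -0.12 to 0.08.

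Among the 19 scaffolds DESeq2 called 0 without the block (3 had an unadjusted p under 0.05, and edgeR and limma also called 0). With the block it called 3 lower, against 2.43% of all genes tested in that fit. Of the 19 scaffolds 17 had a log2 fold change below 0 (median -0.07). Dlg4 encodes PSD-95, the membrane-associated guanylate kinase that anchors glutamate receptors. Dlg4 had 20868, 25225, 23067 and 23611 normalized counts in WT and 19193, 22676, 20735 and 21256 in L192P. The groups overlapped, but the pairs were nearly parallel, with log2 differences of -0.12, -0.15, -0.15 and -0.15. In DESeq2 the log2 fold change was -0.15 ± 0.07, with an adjusted p of 0.504 without the block and 0.00503 with it. The miR-138 family matched 9 members, or 23.7% of those with a 3′ UTR, against 15.7% of all genes. Of these Dlgap4, Shank2, Homer3, Cnksr2, Kalrn, Psd and Sipa1l3 were not called with the block. The miR-92 family matched 9 members, or 23.7%, against 8.06% of all genes. Of these Dlgap2, Camk2a, Cnksr2, Kalrn, Psd3, Synpo and Map2 were not called with the block. The 3′ UTR of Dlg4 held a match for miR-138, the family also matched in Ddn, at chr11:69937569-69937598, and a match for miR-92 at chr11:69937890-69937919, both on the plus strand.
Dlg4, miR-138: gccacttgctggCACCAGCtgtgatgccat
Dlg4, miR-92: ctgcattgcccaGTGCAATtatccttacgg

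Dlg2 encodes PSD-93, a close relative of PSD-95. It had 8833, 8293, 9125 and 9880 normalized counts in WT and 8104, 7729, 8241 and 8494 in L192P, so the groups overlapped. The log2 fold change was -0.15 ± 0.06, with a DESeq2 adjusted p of 0.362 without the block and 0.021 with it. Unlike Ddn, Dlg2 was lowest in replicate 2 of each genotype. Its 3′ UTR held matches for miR-128, miR-181, miR-218 and miR-29, of which those for miR-29 are printed. The 2 matches for miR-29 lie close to each other, at chr7:92096421-92096450 and chr7:92096535-92096564 on the plus strand, each followed by an A.
Dlg2, miR-29, first: ctcgggccagacTGGTGCTaacactgcaaa
Dlg2, miR-29, second: agatcgtgtcacTGGTGCTatttttcatgc

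The related genes Dlg1 (SAP97) and Dlg3 (SAP102) were not called. Dlg1 had a log2 fold change of -0.10 ± 0.07, and Dlg3 one of -0.01 ± 0.05 with a 95% interval of -0.10 to 0.08. The ratio of Dlg2 to Dlg3 within a library does not depend on how libraries are scaled. It was 1.31, 1.25, 1.33 and 1.34 in L192P replicates 1 to 4 and 1.39, 1.36, 1.43 and 1.56 in WT, without overlap. The exact two-sided permutation p was 0.0286, the smallest that 4 libraries against 4 allow, and 0.371 after adjustment over the 13 within-family ratios examined. None of the other 12 ratios, Camk2a to Camk2b and Dlg4 to Dlg1 among them, separated the genotypes, and 0 of the 13 passed after adjustment. Full separation of 1 ratio alone gives 0.371, so the adjusted test could not have called it.

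Of the Dlgap genes, whose proteins join PSD-95 to the Shanks, Dlgap3 was called lower with the block. Dlgap3 had 7767, 12347, 10183 and 10241 normalized counts in WT and 7735, 9638, 9293 and 9052 in L192P. The replicate 1 pair was level, with a log2 difference of -0.0059, and the other pairs differed by -0.36, -0.13 and -0.18. Its log2 fold change was -0.18 ± 0.11, with an adjusted p of 0.683 without the block and 0.0466 with it in DESeq2. Dlgap2 went the other way in replicate 1. It had 1229, 1177, 1298 and 1321 normalized counts in WT and 1294, 1005, 964 and 1028 in L192P, so L192P was higher in replicate 1 and lower in the other 3. Its log2 fold change of -0.22 ± 0.10 was not past the threshold (DESeq2 adjusted p = 0.35, and 0.118 with the block), and without L192P replicate 1 it was -0.33 with an adjusted p of 0.00527. Dlgap1 (0.02 ± 0.04) and Dlgap4 (-0.03 ± 0.05) lay near 0.

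The 3 Shank genes encode the deep scaffold of the density and were not called in any fit. Shank1 had a log2 fold change of -0.11 ± 0.10, Shank2 one of -0.06 ± 0.06 and Shank3 one of -0.15 ± 0.11, and in each the replicate 1 libraries were the lowest. Homer2 lay at -0.04 ± 0.07. Homer3, of the same adaptor family, was the least abundant member and varied most, with 169, 149, 308 and 97.0 normalized counts in L192P and 184, 200, 294 and 94.8 in WT. Its replicate 3 libraries were highest and its replicate 4 libraries lowest in each genotype, and its 95% interval ran from -1.01 to 0.81. Tanc1, a scaffold with ankyrin repeats, had the next widest interval, from -0.45 to 0.57. The remaining scaffolds Lrrc7, Begain, Prr7, Tanc2 and Cnksr2 had log2 fold changes from -0.10 (Begain) to -0.03 (Tanc2).

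Among the 9 regulators of small GTPases DESeq2 called 0 in either fit, edgeR and limma called 0, 0 had an unadjusted p under 0.05, and 7 had a log2 fold change below 0 (median -0.07). Iqsec3, an exchange factor for Arf GTPases, had 2934, 3719, 3626 and 3492 normalized counts in WT and 2796, 3123, 3404 and 3244 in L192P. It was lower in all 4 pairs, with a log2 fold change of -0.13 ± 0.09 (DESeq2 adjusted p = 0.71, and 0.186 with the block). Kalrn, which encodes kalirin, an exchange factor for Rac that shapes spines, had 9771, 11732, 12092 and 12231 in WT and 10623, 10139, 10288 and 11292 in L192P. Its replicate 1 pair was reversed relative to the others, the log2 fold change was -0.11 ± 0.08 (DESeq2 adjusted p = 0.728, and 0.355 with the block), and without the 2 replicate 1 libraries it was -0.19 with an adjusted p of 0.0431. Agap2, the most abundant of this role, had a log2 fold change of -0.07 ± 0.08. Iqsec1, Iqsec2, Psd, Psd3, Sipa1l1 and Sipa1l3 ranged from -0.13 (Psd) to 0.01 (Psd3).

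Of the 7 genes of the spine and dendrite cytoskeleton and membrane, Ddn was called in both fits and Ppp1r9b with the block, and 6 had a log2 fold change below 0 (median -0.10). Ppp1r9b encodes spinophilin, which brings protein phosphatase to the actin of spines. It had 21350, 29566, 26247 and 27105 normalized counts in WT and 20578, 24269, 25012 and 23961 in L192P, with replicate 1 lowest in each genotype. The log2 fold change was -0.15 ± 0.09, with an adjusted p of 0.679 without the block and 0.0414 with it (DESeq2). Ppp1r9b and Dlgap3 each held 1 seed match, both for miR-128. That family matched 16 members, of which only Dlg2, Dlgap3 and Ppp1r9b were called with the block.

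Baiap2, which encodes IRSp53, a protein that bends membrane and organises actin, had 9363, 10260, 9342 and 10037 normalized counts in WT and 8683, 10009, 8216 and 8513 in L192P. It was lower in all 4 pairs but past the threshold in neither fit (log2 fold change -0.14 ± 0.07, DESeq2 adjusted p = 0.532, and 0.0542 with the block). Synpo, the gene of synaptopodin in the spine apparatus, had 5338, 6171, 6117 and 6209 normalized counts in WT and 5758, 5560, 5221 and 5634 in L192P. L192P was higher in replicate 1 and lower in the other 3 pairs, and the log2 fold change was -0.10 ± 0.07 (DESeq2 adjusted p = 0.684, and 0.425 with the block). Map2, the microtubule protein that marks dendrites, lay at 0.03 ± 0.08 on the log2 scale (95% interval -0.13 to 0.18). Cyfip2 (-0.05 ± 0.06) and Icam5 (-0.01 ± 0.08), an adhesion molecule of dendrites, completed the group.

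Without both replicate 1 libraries DESeq2 called 7 members lower, against 1.81% of the 14437 genes tested, namely Ddn, Nrgn, Dlgap2, Dlgap3, Camk2a, Kalrn and Ppp1r9b. With the block in those 6 libraries it called 10, against 2.48% of 13858, adding Dlg4, Camk2n1 and Synpo. Dlg2 was not called in either. Ddn, Nrgn, Dlgap3 and Ppp1r9b were the members called lower with the block in 8 libraries and in both fits of 6. The log2 fold change of Ddn without the replicate 1 libraries was -0.44.

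Seed matches of the 11 microRNA families were counted in the 3′ UTRs of 38 members (Lrrc7 has none annotated in its canonical transcript), beside 14898 tested genes with a 3′ UTR. A match is an exact run, on the transcript strand only, of the 7 bases complementary to the seed, such as TGGTGCT for miR-29, CACTGTG for miR-128 and GTGCAAT for miR-92. The miR-128 family matched 42.1% of members and 24.5% of all genes, the miR-92 family 23.7% and 8.06%, and the miR-29 family 26.3% and 16.7%. In the same order the shares were 23.7% and 15.7% for miR-138, 21.1% and 17.1% for miR-125, and 15.8% and 11.6% for let-7. They were 15.8% and 15.5% for miR-9, 15.8% and 12.1% for miR-26, 21.1% and 19.7% for miR-181, and 18.4% and 17.2% for miR-218. For miR-132 the order was the other way, with 7.89% of members and 13.7% of all genes. The members' UTRs were longer, with a median of 2183 bases against 1362, and the shares were not adjusted for length and carry no test. The median log2 fold change of members with a match ranged over the families from -0.13 (miR-125, miR-29) to -0.01 (miR-26), and that of members without one from -0.11 (miR-26) to -0.07 (miR-29). Homer2, Camk2b, Cyfip2, Prr7 and Agap2 held no match for any of the 11 families, and miR-124 was not among these families. A match shows that the letters are present and does not show that AGO2 binds there.

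Other genes of the excitatory postsynaptic side, 68 kinases, phosphatases, calcium sensors, cytoskeletal regulators and adaptors outside the 39, were read from the same fits. None was called lower or higher by DESeq2 with genotype alone (16 had an unadjusted p under 0.05, and edgeR and limma also called 0), and the median log2 fold change was -0.07, with 51 below 0. With the block 8 were called lower and 3 higher, against 2.43% and 1.82% of all genes tested in that fit. The calcium sensor hippocalcin, Hpca, had a log2 fold change of -0.28 ± 0.04 with the block (DESeq2 adjusted p = 1.2e-10), and its WT libraries, from 29536 to 37001 normalized counts, overlapped with those of L192P, from 24122 to 29789. Homer1, the family partner of Homer2 and Homer3, had 8310, 6987, 6217 and 7531 normalized counts in WT and 6920, 6171, 4763 and 5798 in L192P, a log2 fold change with the block of -0.30 ± 0.05 (DESeq2 adjusted p = 5.88e-07). The others called lower with the block were Cabp1, Dclk1, Calm3, Ngef, Strn and Ppp3r1.

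Those called higher with the block were Camk2d, Rasgrf1 and Rasgrf2. Camk2d encodes the δ subunit of CaMKII and had 3464, 2553, 2482 and 2791 normalized counts in WT and 3762, 3642, 3112 and 3716 in L192P. With the block its log2 fold change was 0.34 ± 0.06 (DESeq2 adjusted p = 2.59e-05), and with genotype alone the DESeq2 adjusted p was 0.0748. The genotypes overlapped, since WT replicate 1 lay above L192P replicate 3. Camk2a and Camk2b were not called in either fit of all libraries. Without overlap between the genotypes 4 of the 68 genes were lower and 1 higher, against 2.96% and 3.01% of all tested genes. In all 4 pairs 23 were lower and 5 higher, against 11.4% and 12.3%.

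The list scores show how the members varied beside the cell type markers. The members' score did not separate the genotypes, since WT replicate 1 (-0.075) lay below 3 of the L192P libraries, whereas the striatum and excitatory neuron scores did. The interneuron markers had a median log2 fold change of 0.10, and Gad2, which encodes an enzyme of GABA synthesis, was called higher in DESeq2 (log2 fold change 0.34 ± 0.09, adjusted p = 0.0235). With the block Gad2 and Adarb2 were called higher (adjusted p = 0.0441 and 0.0494) and Pvalb, of another interneuron class, lower (log2 fold change -0.22 ± 0.06, adjusted p = 0.00907). With the block the striatum markers Penk, Drd2, Adora2a, Ppp1r1b and Pde10a and 3 excitatory markers (Slc17a7, Neurod6 and Tbr1) were called lower. The block also gave higher calls for Cx3cr1 of the microglia list (0.30 ± 0.09, adjusted p = 0.0416) and Slco1a4 of the endothelial list (0.52 ± 0.16, adjusted p = 0.0279). The medians of the astrocyte, oligodendrocyte, microglia, endothelial, hippocampus and erythroid markers were -0.06, -0.12, 0.23, 0.36, -0.05 and 0.25, with no gene called by genotype alone, and their summed counts overlapped between the genotypes. The astrocyte, oligodendrocyte, microglia and endothelial scores were lowest in both replicate 1 libraries. The part of these cell types in the members' values was not tested.

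**Figure D5:**
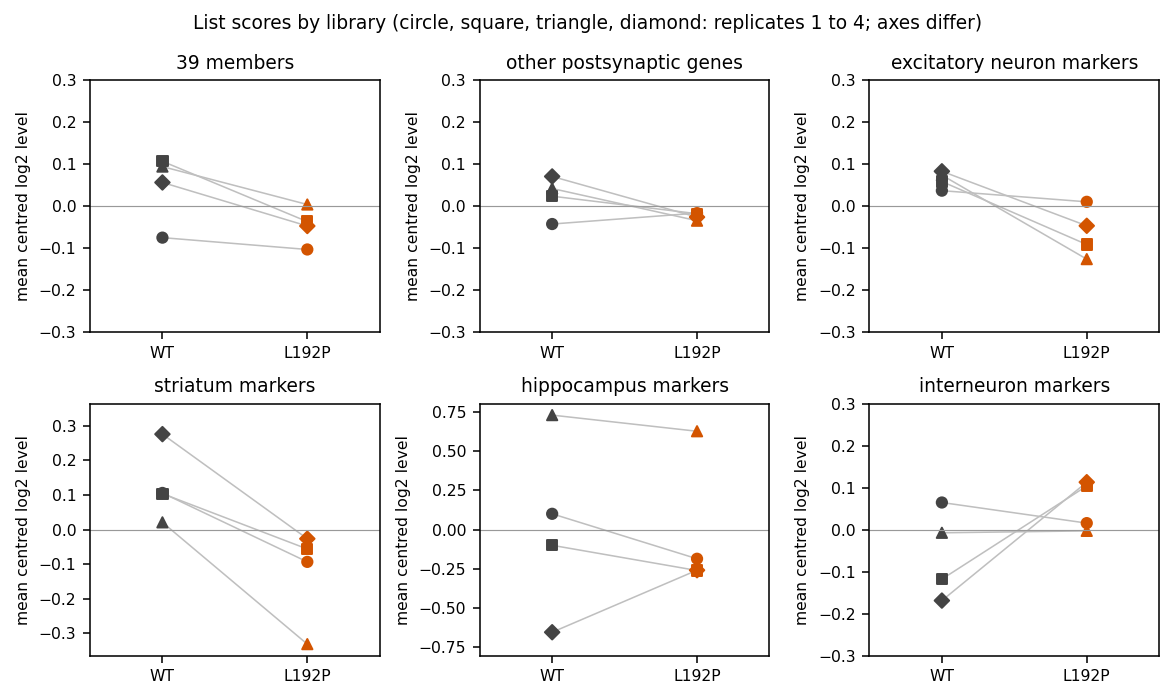
Mean centred log2 level of each gene list in the 8 libraries, WT in grey and L192P in orange, with grey lines joining same-numbered libraries; the axes differ between panels. The score of the 39 members is -0.103 to 0.0041 in L192P and -0.075 to 0.107 in WT, and the striatum and excitatory neuron scores are lower in every L192P library than in any WT library.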

How the data were processed

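Total RNA of cerebral cortex was made into TruSeq Stranded mRNA libraries, per the labels. Per the submitters' processing notes the tools were STAR 2.7.9a, featureCounts 1.5.1 and DESeq2 1.40.2, on GRCm39; the strand setting of the counting and the annotation release are not given in the sources used here. The authors deposited raw counts per gene and library, without pooling. The second deposited table holds signal, the counts divided by size factors, and multiplying it by size factors computed here returned the counts within 2.91e-10.

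DESeq2 1.42.0 in R 4.3.3 was fitted to the counts of all 8 libraries with genotype as the only term, following the study's methods. A gene was called at an adjusted p under 0.05. P-values with genotype alone measure the difference against the spread between libraries of a genotype. Those with the block measure it against the spread left after differences between replicate numbers are taken out. Each normalized count is a count over its library's size factor, fold changes are not shrunken, and intervals are 95% Wald intervals. Of 32676 genes with counts 18627 were tested. Library totals ran from 20396357 to 43575900. The standard error of Homer3, the least abundant member, was 0.465 with genotype alone and 0.168 with the block. Libraries of a genotype differed beyond sampling noise (chi-square per degree of freedom 5.52 to 22.6), which cannot show that they come from different animals. Each was counted as a replicate because the labels number it so.

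Replicate numbers come from the labels. The departures of libraries from their genotype's average (13422 genes, mean of at least 50) correlated at 0.628, 0.381, 0.233 and 0.327 between same-numbered libraries and at -0.375 to 0.144 between the others, so the numbers were taken to pair the libraries. This pairing comes from the data, not the labels. Blocked values are given where they change the call of a member, and blocked calls of the lists by gene name.

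The members and lists were chosen with earlier results of these data known. Text values are given in full for Ddn, members called in either fit and the 5 next by p. Of the other postsynaptic genes those past the threshold could be named, up to 8 by adjusted p, and the 3 beyond that were named after their values were seen. Alternatives were edgeR 4.0.16, limma 3.58.1 (voom, and trend on log2 of normalized values plus 1), TMM or total-count factors, a filter of 10 counts in 4 libraries, no independent or Cook filter, the block, the 6 Xist-high libraries and leaving out each library. The programs were tested on simulated data, in which every tool made more false calls than the threshold allows. Positions and 3′ UTRs came from GENCODE M39 on GRCm39, in which 98.8% of gene identifiers were found. MicroRNA sequences came from a RefSeq table (GRCm38.p6) that matched 11 of 12 families and lacked miR-124. The values of 1 gene of the marker lists are not reported here.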

Additional observations from a re-analysis of the deposited data

Results flagged for a closer look

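In each genotype every member was screened for a library whose gap to the nearest of the other 3 took up more of the group's range than the 95% limit of Dixon's test for 4 values. Of 78 groups 7 passed, where chance gives about 1 in 20, or 3.9. The groups were read from the same libraries and are not independent, so 7 beside 3.9 carries no test. For Ddn in L192P, replicate 1 had 16209 normalized counts, below 18428 to 18668 in the others. For Dlg1 in WT, replicate 4 had 5628.6, above 4893 to 5005. Dlg3 had 6358.2 in L192P replicate 4, above 6193 to 6208, and 6079.3 in WT replicate 2, below 6330 to 6378. For Iqsec1 in WT, replicate 1 had 5199.5, below 5916 to 6045. For Synpo in WT, replicate 1 had 5338 against 6117 to 6209 in the others. For Sipa1l3 in WT, replicate 3 had 1951, above 1486 to 1551. Of the 7 values 3 come from replicate 1, the pair with almost no Xist, and without both of them the log2 fold change of Ddn was -0.44.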

How the results depend on the processing

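Ddn kept its direction and stayed past the threshold in all 19 alternatives, with log2 fold changes of -0.487 to -0.37 and adjusted p from 3.19e-19 to 0.0472 (limma-trend). The median log2 fold change of the members ran from -0.127 to -0.0564, and 0 members were called higher in any alternative. The number of members called lower was 1 with genotype alone. With the replicate block it was 7, without the 2 low-Xist libraries 7, and with the replicate block in those 6 libraries, an alternative chosen after seeing the data, 10; leaving out 1 library gave 1 to 6, with 6 without WT replicate 1, 2 (Ddn and Dlgap2) without L192P replicate 1 and 2 (Ddn and Nrgn) without L192P replicate 2. Of the other postsynaptic genes 0 were called with genotype alone. In the same 3 fits 8, 6 and 10 were called lower, against 2.43%, 1.81% and 2.48% of all genes tested, and 3, 1 and 1 higher. Total-count size factors gave 1 higher, and leaving out 1 library gave 0 to 3 lower and 0 to 2 higher, with the highest counts without WT replicate 1. The cause was not tested. The replicate block changed no other call of a named member.

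Counts over all genes moved more. With genotype alone 106 were lower and 147 higher, with the block 305 and 228, without the 2 low-Xist libraries 262 and 238, with both 343 and 229, with edgeR 9 and 44, with limma-voom 7 and 38, with limma-trend 9 and 42, and with total-count factors 64 lower. Leaving out 1 library gave 35 to 241 lower and 76 to 255 higher. Scaling by total counts moved the share of tested genes below 0 from 49.4% to 42.7%.

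Of the 13 within-family ratios 0 passed with 1 count added to each gene. There, as in the main test, 1 fully separated ratio alone could not have passed. Without 1 library or with the block none could have passed, since 4 libraries against 3 allow no p under 0.0571 and 4 pairs with the block none under 0.125. Some changed sign when 1 library was left out, within the ranges given. The log2 difference of Shank1/Shank2 (-0.112 to 0.0132) was 0.0132 without L192P replicate 1, and that of Dlg4/Dlg1 (-0.086 to 0.0132) was 0.0132 without WT replicate 2. Iqsec1/Iqsec2 (-0.0144 to 0.0318) became -0.0118 and -0.0144 without replicate 2 of L192P and of WT. Homer2/Homer3 (-0.19 to 0.372) became -0.19 without L192P replicate 4 and -0.144 without WT replicate 3. Tanc1/Tanc2 (-0.134 to 0.242) became -0.134 without L192P replicate 3, -0.0209 without WT replicate 2 and -0.0224 without WT replicate 4. With 4 libraries a genotype the standard errors of the members' log2 fold changes ran from 0.044 to 0.47, the latter for Homer3.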
